A study of Homo sapiens with 24 samples.

Results

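The EGF receptor ligands and the Sprouty family of feedback inhibitors were followed as 10 genes, chosen by symbol: the ligand genes HBEGF, AREG, EREG and TGFA, the receptor gene EGFR, and the inhibitor genes ERRFI1, SPRY1, SPRY2, SPRY4 and SPRED2. All 10 were found among the 61533 genes of the deposited exon count table, and 8 of them passed the filter on low counts. The remaining 2, SPRY1 and SPRY4, were at or near a count of 0 throughout. The assay was 4sU-seq, which sequences RNA made during a pulse of 4-thiouridine after it is purified by that label. The cells were U2OS, a human osteosarcoma line, stably expressing the glucocorticoid receptor (GR) joined to HaloTag, a protein tag used to sort them. The 3 lines carried wild-type GR (wt), GR with the substitution K492A (SoF, the mutant with reduced RNA binding) or GR with R470A (Ctrl, a mutant that serves as its control for reduced DNA binding). The synthetic glucocorticoid dexamethasone was given at 100 nM for 1, 2 or 3 h, the 0 h dishes had 0.01% ethanol instead, and 200 µM 4-thiouridine was present for the final 1 h. Line and time gave 12 groups of 2 libraries, grown in charcoal-stripped serum.

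Some limits come with these groups. Each line was 1 stably transfected and sorted pool, so the GR construct and the pool cannot be told apart. Medium was replaced when treatment began and the duration in ethanol is not stated, so dexamethasone and time since the change of medium cannot be told apart in any comparison with 0 h. The same holds for the steps between treated times, where hours of dexamethasone and hours since the change of medium rise together. These are bulk samples, in which fewer cells of a type and less RNA per cell cannot be told apart. The labels do not say that the 2 libraries of a group came from separate cultures. The p-values therefore measure the spread between libraries, which may be technical. By the methods of the study, labelled RNA was purified in pairs of replicates. If a pair was the 2 libraries of a group, purification and group cannot be told apart. Spread between purifications is then missing from the p-values. Total counts ran from 8106036 to 15820806 per library. The ethanol libraries also stood apart within lines. On the first principal component of all genes (39.6% of the variance), the 0 h replicates differed by 36.7%, 65.9% and 70.9% of the distance from 0 h to 3 h in wt, SoF and Ctrl, with replicate 1 nearer to 3 h in each. Comparisons of 2 h with 1 h and of 3 h with 2 h, which use no ethanol library, are therefore given beside those with 0 h. Of the mesenchymal markers, VIM, SPARC, COL1A1, RUNX2 and FN1 were present (medians of 106 to 1235 CPM), ALPL and BGLAP had medians of 21.8 and 0.860 CPM, and COL1A2, IBSP and SP7 had medians of 0.209, 0 and 0 CPM. The 9 epithelial, blood and endothelial markers had medians of 0 to 4.58 CPM. CPM is the count scaled to a common library total with TMM factors. It is a share of the labelled RNA, so a change in the total amount of new RNA would not be seen.

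EGFR is a receptor tyrosine kinase at the cell surface. Its ligands are made as membrane-bound precursors and released by proteases, and the bound receptor signals through RAS and the kinases RAF, MEK and ERK. The pathway induces its own inhibitors: ERRFI1 (MIG6) binds the kinase domain of the receptor, Sprouty proteins act on the signal between receptor and RAF, and SPRED proteins bring the RAS inactivator NF1 to the membrane. Glucocorticoids are known for restraining growth factor and inflammatory signalling in many cell types.

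Of the 10 genes, 7 passed at least 1 test over time, with different timing. From 1 h to 2 h alone, 44.9% of all tested genes passed, and the share passing at least 1 test was not counted. The 7 are therefore not read as an excess. HBEGF was lower at 1 h than at 0 h and then rose to 3.27 times its 0 h level by 3 h (mean of 3 lines). AREG was the only member to pass as higher at 1 h. EGFR did not pass at 1 h or 2 h (log2 0.05 ± 0.18 SE and 0.02 ± 0.18) and was 2.91 times as high at 3 h. SPRY2 was 1.22 times as high at 2 h and fell to 1.56-fold below its 0 h level at 3 h. These values are averages over lines, which were added after the data were seen. The 1 h calls of HBEGF and AREG and the 2 h call of SPRY2 were each lost without certain single libraries. No member passed at 1 h within a single line. The genes span 5.2 kb (SPRY2) to 192.6 kb (EGFR), and whether gene length bears on the timing was not tested. ERRFI1, the member with the highest median level, passed no test against 0 h. For no member did the 3 h response differ between lines by the test.

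The level per exon length ordered the members. In RPKM, which is CPM per kilobase of exon, the medians over 24 libraries were 73.6 for ERRFI1, 42.7 for HBEGF, 30.3 for SPRY2, 22.6 for SPRED2 and 20.4 for AREG. They were 2.86 for TGFA, 1.07 for EREG and 0.992 for EGFR. The first 5 changed places between libraries. For example, HBEGF was above SPRY2 in 14 of 24 libraries and SPRED2 above AREG in 14 of 24. AREG was above TGFA and TGFA above EREG in 24 of 24, while EREG was above EGFR in only 10 of 24.

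**Figure D1:**
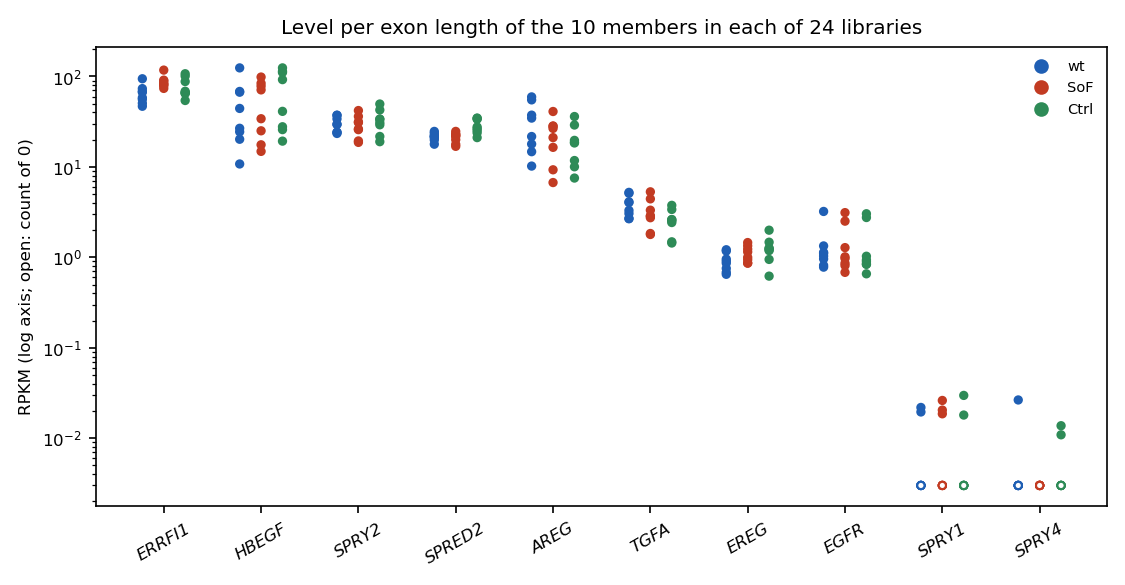
Level of the 10 members in RPKM on a log axis. Each point is 1 of 24 libraries, coloured by line, and open points mark a count of 0, drawn at a fixed height. ERRFI1 reached 118 RPKM, and no library of SPRY1 or SPRY4 passed 0.0297.

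HBEGF encodes heparin-binding EGF-like growth factor (chromosome 5, positions 140332843 to 140346603, minus strand, hg38). In wt, its 2 libraries (replicate 1, then replicate 2) had 79.95 and 73.2 CPM at 0 h, 32.2 and 60.5 at 1 h, 132.6 and 204 at 2 h, and 200.4 and 372 at 3 h. In SoF they had 102.0 and 75.0 CPM at 0 h, 52.5 and 44.4 at 1 h, 213 and 252 at 2 h, and 234 and 295 at 3 h. In Ctrl they had 123 and 83.1 CPM at 0 h, 77.3 and 57.7 at 1 h, 331 and 341 at 2 h, and 276 and 372 at 3 h. In every line both 1 h libraries lay below both 0 h libraries, and all libraries at 2 h and 3 h lay above them. The share of all genes whose libraries separated in this way was not counted. Here and below, such separation is a description and is not read as a result. At 1 h no single line passed the test, with log2 fold changes of -0.72 ± 0.29 (SE), -0.87 ± 0.29 and -0.62 ± 0.29 in wt, SoF and Ctrl. The mean of the 3 lines did, at -0.74 ± 0.17 (edgeR quasi-likelihood test, Benjamini-Hochberg adjusted p = 0.0253). That call was lost when any 1 of 7 libraries was left out, listed in the closing section. From 1 h to 2 h HBEGF then rose 4.42-fold (log2 2.15 ± 0.17, adjusted p = 6.19e-09), the largest such change of the 8 tested members. Against 0 h, the 2 h value was 2.20-fold, 2.62-fold and 3.25-fold in wt, SoF and Ctrl (adjusted p = 0.0242, 0.00458 and 0.00073). At 3 h it was 3.74-fold, 2.98-fold and 3.14-fold (adjusted p = 0.0001655, 0.000572 and 0.000579). From 2 h to 3 h the log2 change was 0.30 ± 0.16 and did not pass the test (adjusted p = 0.291). In wt the replicates differed by 1.54-fold to 1.88-fold at 1, 2 and 3 h, with replicate 2 higher each time. The 2 h call in wt was lost without either 0 h library, without 2 h replicate 2 or with only the libraries of wt in the fit (adjusted p = 0.0625), and that in SoF was lost without 0 h replicate 2 (adjusted p = 0.104). All 3 calls at 3 h held with each library left out.

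AREG encodes amphiregulin (chromosome 4, 74445136 to 74455005, plus strand). In wt, AREG had 24.2 and 16.8 CPM at 0 h, 35.6 and 97.6 at 1 h, 61.4 and 90.5 at 2 h, and 56.9 and 29.4 at 3 h. In SoF it had 15.3 and 11.03 CPM at 0 h, 46.6 and 27.0 at 1 h, 67.3 and 43.8 at 2 h, and 46.3 and 34.6 at 3 h. In Ctrl it had 30.7 and 12.4 CPM at 0 h, 59.2 and 19.3 at 1 h, 47.7 and 32.3 at 2 h, and 30.2 and 16.5 at 3 h. Libraries at 1, 2 and 3 h lay above those at 0 h in wt and SoF, and in Ctrl only those at 2 h did. Averaged over lines, AREG was 2.53-fold higher at 1 h (log2 1.34 ± 0.29, adjusted p = 0.0174), a call lost without 1 h replicate 2 of wt or 1 h replicate 1 of SoF or Ctrl. It was 3.04-fold higher at 2 h (log2 1.60 ± 0.29, adjusted p = 0.000244). Within lines it passed the test at 2 h in wt (log2 1.89 ± 0.49, adjusted p = 0.02985) and SoF (2.07 ± 0.51, adjusted p = 0.0175), and at 3 h in SoF (1.61 ± 0.51, adjusted p = 0.0302). In Ctrl the values were 0.86 ± 0.50 at 2 h and 0.09 ± 0.50 at 3 h. The 3 h call in SoF was also lost in DESeq2 (adjusted p = 0.0513). Averaged over lines at 3 h AREG was 1.90-fold higher (log2 0.92 ± 0.29, adjusted p = 0.0142), which was lost without 3 h replicate 1 of wt or of Ctrl. From 1 h to 2 h its log2 change was 0.27 ± 0.28 (adjusted p = 0.447) and from 2 h to 3 h -0.68 ± 0.28 (adjusted p = 0.138), so neither step between treated times passed. The second passed without the filter on low counts (adjusted p = 2.29e-07) and with a replicate term for each line (0.0247), and the first without the filter (0.0461). AREG had the widest error of the members. Its replicates differed by up to 3.07-fold within a group (Ctrl, 1 h), replicate 1 was the higher in 4 of 4 groups of SoF and 4 of 4 of Ctrl, and each of the 3 within-line calls was lost without at least 1 library (in wt at 2 h, without either 0 h library or 2 h replicate 2; in SoF at 2 h, without 0 h replicate 2 or 2 h replicate 1; in SoF at 3 h, without 0 h replicate 2 or either 3 h library).

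EREG encodes epiregulin and is the next protein-coding gene upstream of AREG, on the same strand (chromosome 4, 74365145 to 74388749). It was low, with 35 to 108 counts per library. In wt it had 5.19 and 4.31 CPM at 0 h, 3.899 and 3.71 at 1 h, 4.92 and 5.46 at 2 h, and 6.93 and 6.71 at 3 h. In SoF the values were 4.94 and 5.71 CPM at 0 h, 4.93 and 5.38 at 1 h, 6.56 and 8.32 at 2 h, and 7.67 and 7.05 at 3 h. In Ctrl they were 6.78 and 5.42 CPM at 0 h, 7.14 and 3.54 at 1 h, 11.4 and 7.24 at 2 h, and 8.40 and 6.93 at 3 h. In all lines both 3 h libraries were above both 0 h libraries, which is a description only, as for HBEGF. EREG did not pass the test in any line at any time. Averaged over lines it rose 1.502-fold from 1 h to 2 h (log2 0.59 ± 0.16, adjusted p = 0.00526) and was 1.35-fold above 0 h at 3 h (0.44 ± 0.16, adjusted p = 0.0291). From 2 h to 3 h the change was 0.04 ± 0.15 (adjusted p = 0.916). The call against 0 h was lost in DESeq2 (adjusted p = 0.0520) and without any 1 of 6 libraries. At 1 h, where AREG was higher, the log2 change of EREG was -0.19 ± 0.16 (95% interval -0.53 to 0.15).

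TGFA encodes transforming growth factor alpha (chromosome 2, 70447284 to 70554193, minus strand). In wt it had 16.2 and 15 CPM at 0 h, 13.3 and 13.1 at 1 h, 19.8 and 20.2 at 2 h, and 25.1 and 25.7 at 3 h. In SoF it had 14.1 and 9.02 CPM at 0 h, 14.1 and 8.80 at 1 h, 21.8 and 13.5 at 2 h, and 26.1 and 16.3 at 3 h. In Ctrl it had 12.9 and 7.30 CPM at 0 h, 11.9 and 7.08 at 1 h, 18.5 and 12.8 at 2 h, and 16.6 and 12.4 at 3 h. In wt the replicates lay within 1.08-fold of each other at each time, whereas in SoF and Ctrl replicate 1 was higher at each of the 4 times, by 1.34-fold to 1.76-fold. The cause of this replicate gap was not tested. Averaged over lines, TGFA rose 1.56-fold from 1 h to 2 h (log2 0.65 ± 0.18, adjusted p = 0.00578) and was 1.61-fold above 0 h at 3 h (0.69 ± 0.18, adjusted p = 0.00335). From 2 h to 3 h the change was 0.17 ± 0.17 (adjusted p = 0.624). Within lines only SoF at 3 h passed (log2 0.87 ± 0.30, adjusted p = 0.0490), close to the threshold, and this call was lost without 0 h replicate 2 (log2 0.59) or 3 h replicate 1 (0.48), with DESeq2 size factors (adjusted p = 0.0521) and with only the SoF libraries (0.0713). In wt at 3 h (0.70 ± 0.29, adjusted p = 0.136) TGFA passed without the filter on low counts (0.0263), with a replicate term (0.0251) and with only the wt libraries (0.0216). With a replicate term for each line, wt, SoF and Ctrl all passed at 3 h (adjusted p = 0.00259 in wt and 0.0230 in Ctrl). That model was chosen after the data were seen.

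EGFR itself (chromosome 7, 55019017 to 55211628, plus strand, a span of 192.6 kb) passed against 0 h at 3 h alone. In wt it had 16.4 and 15.3 CPM at 0 h, 13.0 and 18.1 at 1 h, 12.4 and 17.6 at 2 h, and 21.3 and 51.3 at 3 h. In SoF it had 16.1 and 13.7 CPM at 0 h, 20.4 and 10.9 at 1 h, 15.5 and 12.9 at 2 h, and 40.0 and 49.8 at 3 h. In Ctrl it had 14.9 and 10.5 CPM at 0 h, 14.3 and 13.4 at 1 h, 13.4 and 16.4 at 2 h, and 48.4 and 43.9 at 3 h. All 6 libraries at 3 h lay above all 18 earlier ones. From 2 h to 3 h EGFR rose 2.87-fold averaged over lines (log2 1.52 ± 0.18, adjusted p = 4.39e-06), while from 1 h to 2 h its log2 change was -0.03 ± 0.18 (95% interval -0.41 to 0.36). Against 0 h the 3 h value was 2.29-fold in wt, 3.00-fold in SoF and 3.59-fold in Ctrl (adjusted p = 0.0127, 0.000949 and 0.000438). The wt value rested on 1 library. Without 3 h replicate 2 the log2 change in wt was 0.43 (adjusted p = 0.495), and without either 0 h replicate it also missed the threshold (adjusted p = 0.0658 and 0.0836). In SoF and Ctrl the calls held with each library left out. Reads of EGFR-AS1, on the opposite strand, were 0.064% as many as those of EGFR.

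**Figure D2:**
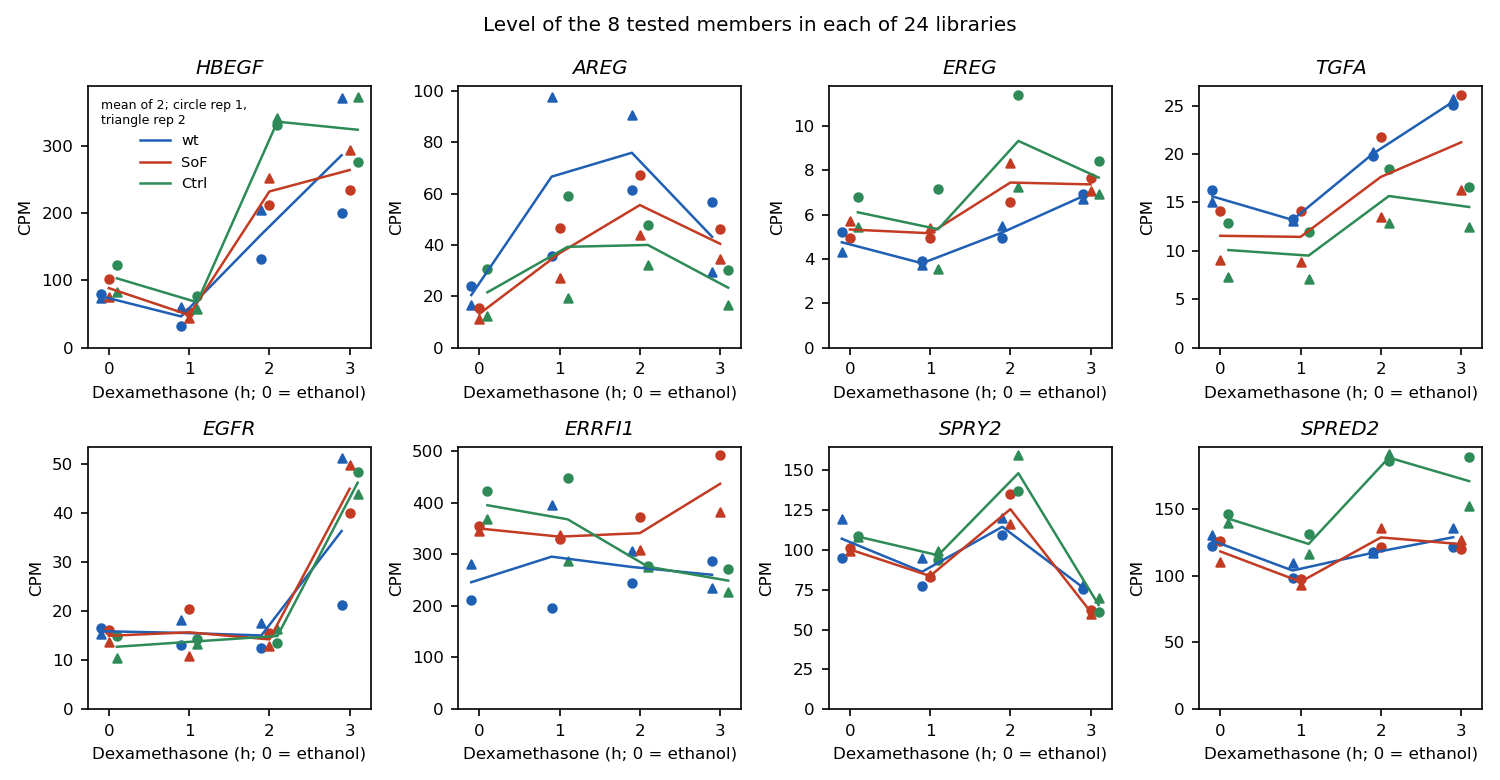
CPM of the 8 tested members against hours of dexamethasone, 1 panel per gene. Circles are replicate 1, triangles replicate 2, and lines join the means of the 2 libraries of each group. HBEGF dips at 1 h, EGFR is raised at 3 h alone, and SPRY2 goes up at 2 h and down at 3 h. AREG is raised at 1, 2 and 3 h in wt and SoF, and in Ctrl only its 2 h libraries clear both 0 h libraries.

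The 250 bases before the start sites of 5 members are shown because the results on timing turn on these genes. AREG and EREG, neighbours of which AREG passed at 1 h and EREG did not, stand first, followed by HBEGF, EGFR and SPRY2. The sequences come from RefSeq (GRCh38.p14), which listed a window for 10 of 10 members, and are written 5′ to 3′ on the gene's strand. Capitals mark matches to the motifs named after them.
AREG (chr4:74444886-74445135, plus): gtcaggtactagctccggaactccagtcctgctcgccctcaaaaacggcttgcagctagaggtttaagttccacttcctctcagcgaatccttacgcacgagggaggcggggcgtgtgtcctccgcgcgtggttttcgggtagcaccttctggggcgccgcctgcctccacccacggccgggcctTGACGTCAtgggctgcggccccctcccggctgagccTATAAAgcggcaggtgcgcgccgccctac
EREG (chr4:74364895-74365144, plus): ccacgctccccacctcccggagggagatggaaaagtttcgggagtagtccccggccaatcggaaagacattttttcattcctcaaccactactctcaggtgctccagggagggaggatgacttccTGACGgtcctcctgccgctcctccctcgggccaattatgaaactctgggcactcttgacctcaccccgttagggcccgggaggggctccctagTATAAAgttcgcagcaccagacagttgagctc
HBEGF (chr5:140346604-140346853, minus): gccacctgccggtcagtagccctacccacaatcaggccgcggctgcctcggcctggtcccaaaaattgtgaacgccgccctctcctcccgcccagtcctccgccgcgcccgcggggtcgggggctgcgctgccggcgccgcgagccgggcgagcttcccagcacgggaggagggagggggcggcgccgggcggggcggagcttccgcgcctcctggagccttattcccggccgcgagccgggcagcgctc
EGFR (chr7:55018767-55019016, plus): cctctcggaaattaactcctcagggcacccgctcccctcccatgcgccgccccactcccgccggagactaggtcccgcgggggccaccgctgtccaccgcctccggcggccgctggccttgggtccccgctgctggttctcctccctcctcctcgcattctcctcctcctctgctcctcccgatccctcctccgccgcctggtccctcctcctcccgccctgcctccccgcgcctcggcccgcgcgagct
SPRY2 (chr13:80341127-80341376, minus): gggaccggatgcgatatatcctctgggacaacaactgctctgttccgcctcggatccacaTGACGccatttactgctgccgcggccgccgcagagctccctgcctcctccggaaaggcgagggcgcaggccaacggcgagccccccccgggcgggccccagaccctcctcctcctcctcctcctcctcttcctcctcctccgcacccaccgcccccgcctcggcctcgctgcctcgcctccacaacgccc

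Motifs were searched on both strands and described only as letters in these windows. For each member only the window nearest to its annotated start was used. Further windows listed for TGFA, EGFR, SPRY1, SPRY2 and SPRED2 were left out of the member counts. The start site of the SPRY4 window lay 774 bases from the annotated start. AREG held the full cyclic AMP response element (CRE) TGACGTCA, 65 to 58 bases before its start, which 1.65% of all 35116 windows of this length held. It overlapped matches of the shorter TGACG, found in 5 of 10 members (AREG, EREG, TGFA, SPRY2 and SPRY4) and in 21.22% of all windows. AREG and EREG each held TATAAA, starting 29 and 32 bases before the start, as did 10.72% of windows. HBEGF and EGFR held no match to any motif searched. No member window held the AP-1 site TGANTCA (6.57% of all windows), the glucocorticoid receptor hexamer AGAACA (12.39%), the EGR1 site GCGTGGGCG (0.72%) or the CArG box bound by serum response factor (1.16%).

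Of the feedback inhibitors, SPRY2 (chromosome 13, 80335976 to 80341126, minus strand) encodes an inhibitor of the RAS-ERK signal. In wt it had 94.6 and 119.5 CPM at 0 h, 77.4 and 95.2 at 1 h, 109 and 119.9 at 2 h, and 75.3 and 77.8 at 3 h. In SoF it had 101 and 99.5 CPM at 0 h, 83.0 and 84.3 at 1 h, 135 and 116 at 2 h, and 62.3 and 60 at 3 h. In Ctrl it had 108.6 and 108.2 CPM at 0 h, 93.9 and 99.4 at 1 h, 137 and 159 at 2 h, and 61.1 and 69.8 at 3 h. In each line both 3 h libraries lay below both 0 h libraries, and in SoF and Ctrl both 2 h libraries lay above them. Averaged over lines, SPRY2 rose 1.45-fold from 1 h to 2 h (log2 0.54 ± 0.08, adjusted p = 2.01e-05) and fell 1.91-fold from 2 h to 3 h (-0.93 ± 0.08, adjusted p = 1.27e-07). Against 0 h it was lower at 3 h in wt (-0.48 ± 0.14, adjusted p = 0.02905), SoF (-0.71 ± 0.14, adjusted p = 0.00116) and Ctrl (-0.73 ± 0.14, adjusted p = 0.00146). The wt call was lost without 0 h replicate 2 (log2 -0.29), without either 3 h library, without the filter on low counts (adjusted p = 0.0725) and with only the wt libraries (0.0901). In SoF and Ctrl the 3 h calls held with each library left out. In Ctrl SPRY2 also passed at 2 h (0.45 ± 0.14, adjusted p = 0.0490), a call lost without any 1 of its 4 libraries, with DESeq2 size factors (adjusted p = 0.0662) and with only the Ctrl libraries (0.0855).

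ERRFI1 (chromosome 1, 8004404 to 8026309, minus strand) had the highest median level per exon length. In wt it had 211 and 280.0 CPM at 0 h, 196 and 394 at 1 h, 243 and 307 at 2 h, and 287 and 233 at 3 h. In SoF it had 354 and 345 CPM at 0 h, 329.8 and 338 at 1 h, 373 and 309 at 2 h, and 491.7 and 381 at 3 h. In Ctrl it had 422 and 368 CPM at 0 h, 448 and 287 at 1 h, 277 and 275 at 2 h, and 271 and 227 at 3 h. In SoF both 3 h libraries lay above both 0 h libraries, in Ctrl both lay below, and in wt the groups overlapped. None of the 9 comparisons with 0 h passed the test. The closest was Ctrl at 3 h (log2 -0.67 ± 0.24, adjusted p = 0.0720), which passed in DESeq2 (adjusted p = 0.0404), with only the Ctrl libraries (0.0297), without the filter on low counts (0.00131) and with a replicate term for each line (0.0275). Ctrl at 2 h also passed without the filter (log2 -0.54, adjusted p = 0.0230). Averaged over lines its 3 h change was -0.09 ± 0.14, that from 1 h to 2 h -0.16 ± 0.14 (adjusted p = 0.359) and that from 2 h to 3 h 0.04 ± 0.14 (adjusted p = 0.902). Reads of a gene overlapping ERRFI1 on the opposite strand (ENSG00000284747) were 0.72% as many.

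SPRED2 (chromosome 2, 65310851 to 65432637, minus strand) varied least, with an SD of log2 CPM of 0.276. In wt it had 122 and 130.1 CPM at 0 h, 98.2 and 109.5 at 1 h, 117.4 and 116.9 at 2 h, and 121.5 and 136 at 3 h. In SoF it had 126 and 110.2 CPM at 0 h, 97.8 and 93.0 at 1 h, 121 and 136 at 2 h, and 120.2 and 127 at 3 h. In Ctrl it had 146 and 139 CPM at 0 h, 131 and 116 at 1 h, 186 and 191 at 2 h, and 189 and 152 at 3 h. In each line both 1 h libraries lay below both 0 h libraries, but the mean log2 change of -0.27 ± 0.08 did not pass the test (adjusted p = 0.106), though it did in DESeq2 (adjusted p = 0.0234). From 1 h to 2 h SPRED2 rose 1.32-fold (log2 0.40 ± 0.08, adjusted p = 0.000241), and from 2 h to 3 h its change was -0.02 ± 0.08 (adjusted p = 0.910). Against 0 h it passed in no line. The nearest was Ctrl at 2 h (log2 0.40 ± 0.13, adjusted p = 0.0644), which passed in DESeq2 (adjusted p = 0.0414).

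SPRY1 and SPRY4 could not be tested. SPRY1 had 7 counts in all, in 7 of 24 libraries, and SPRY4 had 4 counts in 3 libraries. A count of 0 allows a level of up to 0.19 to 0.37 CPM, depending on the library (3 counts, for counting error only). SPRY4-AS1, an antisense gene whose exons do not overlap those of SPRY4, had 49 counts in all.

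The counts of members that passed are read against the share of all 23651 tested genes that passed. At 1 h, 0 of 8 tested members passed in wt, SoF and Ctrl, where 0.156%, 0.165% and 0.0465% of genes did. At an unadjusted p under 0.05 there were 2602, 1645 and 423 genes, and DESeq2 called 105, 79 and 15 genes and again 0 members. At 2 h, 2 members passed in each line (HBEGF in all 3, with AREG in wt and SoF and SPRY2 in Ctrl), against 4.6%, 5.68% and 7.95% of genes. At 3 h, 3 passed in wt, 5 in SoF and 3 in Ctrl, against 10.7%, 19.3% and 14.2%. HBEGF, EGFR and SPRY2 were the 3 in wt and Ctrl, and SoF added AREG and TGFA. These sets moved with the settings given above: AREG and TGFA passed in wt under some of them (AREG without the filter on low counts, adjusted p = 2.28e-06, and with a replicate term for each line, 0.0420), both lost their call in SoF under others, and EGFR and SPRY2 lost theirs in wt without 1 library. Averaged over lines, 2, 4 and 6 members passed at 1, 2 and 3 h, against 1.28%, 28.8% and 40.3% of genes. From 1 h to 2 h, 5 of 8 members rose and 0 fell, where 22.7% of genes rose and 44.9% changed in either direction. From 2 h to 3 h, 1 rose and 1 fell, where 10% of genes changed. The median log2 change of the 8 members at 3 h was 0.61, 0.67 and 0.29 in wt, SoF and Ctrl, beside -0.03, -0.03 and -0.02 over all genes tested. The comparisons of the 3 times within a line share their 0 h libraries.

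**Figure D3:**
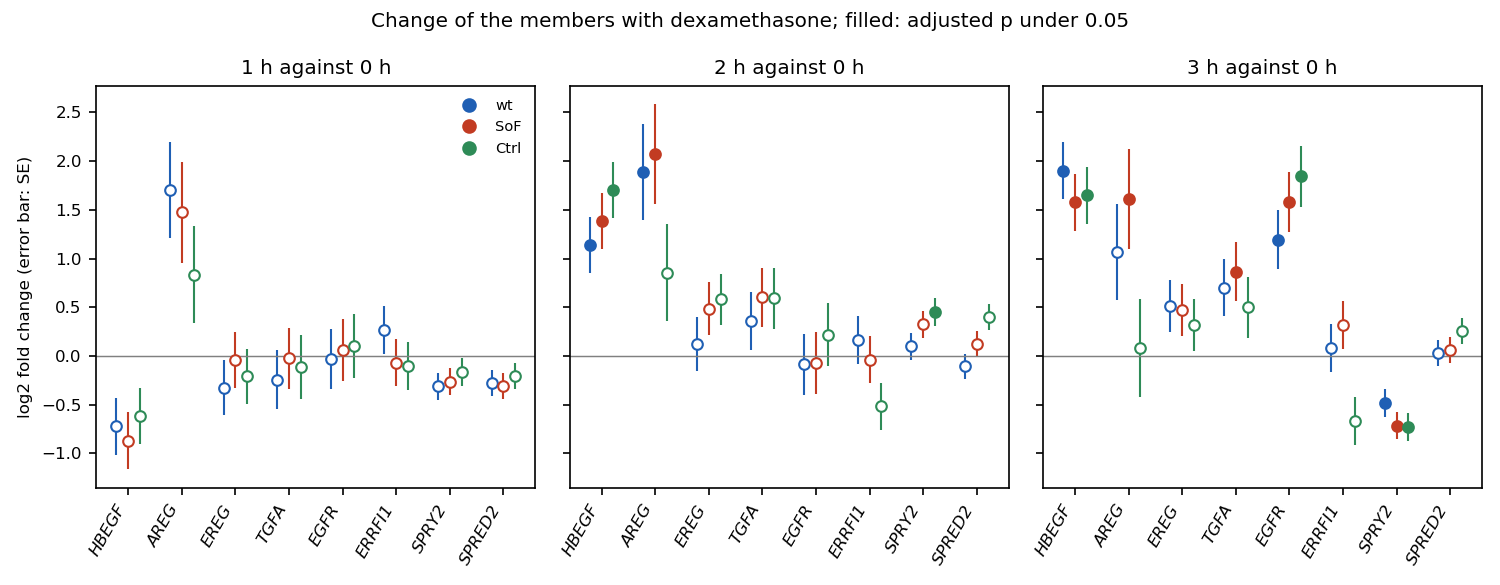
log2 fold change of the 8 tested members against 0 h of the same line, with SE bars, at 1, 2 and 3 h. Filled points passed the test over all genes. At 3 h HBEGF and EGFR are filled above 0 and SPRY2 below 0 in all 3 lines.

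Whether the GR mutations changed the response was asked by subtracting the 3 h change of one line from that of another. No member passed: 0 of 8 for SoF minus Ctrl, for SoF minus wt and for Ctrl minus wt, against 0.0127%, 0% and 0% of genes. At an unadjusted p under 0.05 there were 671, 558 and 845 genes, and DESeq2 called 12, 0 and 1 genes, none of them a member. The largest differences among the members belonged to AREG and ERRFI1, and both passed for SoF minus Ctrl when no filter on low counts was used (adjusted p = 9.79e-05 and 0.0139). Without the filter their log2 differences were 1.55 and 1.01, close to those of the main fit given next. The unfiltered fit took in every gene with a count, and these calls are not read as a difference between lines. The AREG response was 1.52 ± 0.72 higher in SoF than in Ctrl on the log2 scale (95% interval 0.04 to 3.01, unadjusted p of the edgeR fit 0.0447, adjusted p = 1). The ERRFI1 response was 0.99 ± 0.35 higher in SoF than in Ctrl (95% interval 0.27 to 1.70, unadjusted p of the edgeR fit 0.0091, adjusted p = 1). For Ctrl minus wt it was -0.75 ± 0.35 (adjusted p = 0.982). For HBEGF, SoF minus Ctrl was -0.07 with an interval of -0.90 to 0.76, and for SPRY2 it was 0.01 with an interval of -0.40 to 0.43. For EGFR it was -0.26 (-1.16 to 0.64). These intervals leave room for sizeable differences in HBEGF and EGFR and narrower ones in SPRY2.

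With time ignored, as the methods of the study compare its lines, 8 libraries of each line were set against each other over 21122 genes. SPRED2 was the only member to pass in this fit, which holds no time term. It was lower in SoF than in Ctrl (log2 -0.42 ± 0.10, adjusted p = 0.0157) and higher in Ctrl than in wt (0.40 ± 0.10, adjusted p = 0.0229). Between SoF and wt its difference was -0.02 ± 0.10 (95% interval -0.23 to 0.19). SPRED2 was thus 1 of 8 members in those 2 comparisons, against 3.61% and 4.77% of genes, and 0 of 8 members passed between SoF and wt, against 8.02%. With only replicate 1 or only replicate 2 of each group, neither SPRED2 call was made, and without the filter on low counts that for Ctrl against wt was not (adjusted p = 0.102). In SoF, ERRFI1 had 1.36 times its wt level without passing (log2 0.45 ± 0.15, adjusted p = 0.0611). It passed in DESeq2 (adjusted p = 0.0492) and with a time term (0.0170). With a time term HBEGF, EREG and TGFA also passed between Ctrl and wt. Their log2 differences were 0.54, 0.46 and -0.56 (edgeR adjusted p = 0.00833, 0.0132 and 0.00581).

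Replicates set the precision for several ligands. AREG and TGFA had replicate 1 above replicate 2 in 10 of 12 groups each, SPRY2 in 4 and HBEGF in 5. The largest replicate gap was 1.26-fold for SPRY2 and 1.24-fold for SPRED2, against 2.41-fold for EGFR and 3.07-fold for AREG.

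**Figure D4:**
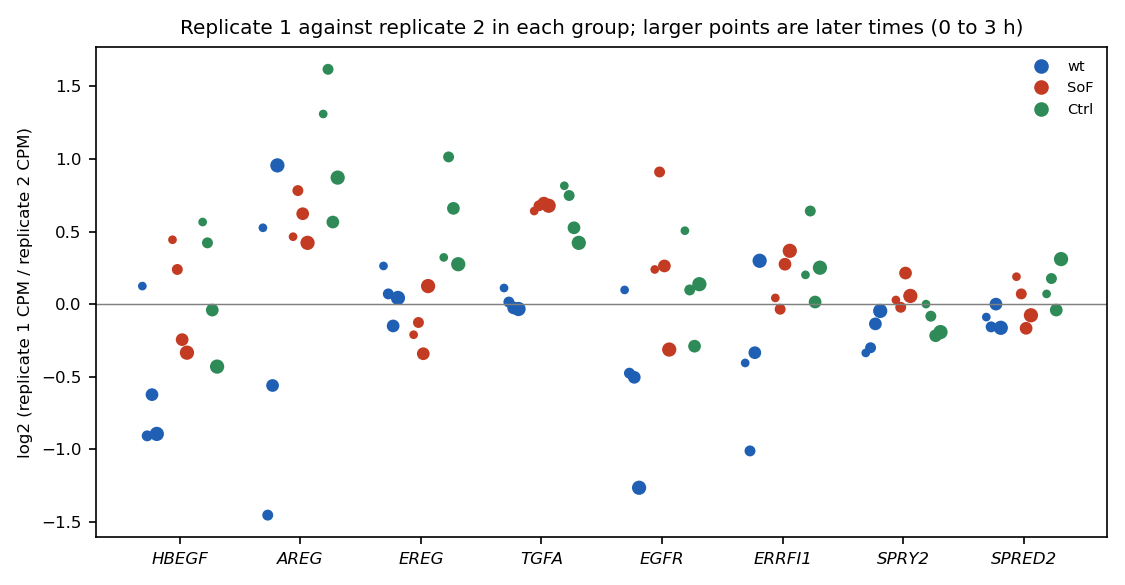
log2 ratio of replicate 1 to replicate 2 in CPM for the 8 tested members, with 1 point per group, coloured by line, and larger points at later times. TGFA points of SoF and Ctrl all lie above 0, as do those of AREG, and SPRY2 and SPRED2 points lie close to 0.

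Other genes of the pathway came from lists chosen by function, and are given as counts over tested genes at 3 h in wt, SoF and Ctrl. Genes called only in SoF or Ctrl are named after their values were seen, because the counts are small. The shares of all tested genes called in either direction at 3 h, 10.7% in wt, 19.3% in SoF and 14.2% in Ctrl, are the background for each list, and lines are not compared by these counts. Of the other ERBB ligands and receptors (8 of 10 tested), 1 rose and 2 fell in wt, 1 rose and 3 fell in SoF, and 2 rose and 2 fell in Ctrl. EGF, the founding ligand, fell in all 3 lines, by 2.46 ± 0.45, 2.75 ± 0.49 and 2.67 ± 0.51 on the log2 scale (adjusted p = 0.000999, 0.000424 and 0.00116). ERBB3, a receptor partner without strong kinase activity, also fell in all 3, by 1.16, 1.59 and 1.99, at a low level of 9 to 71 counts per library. NRG3, a neuregulin ligand gene, rose in wt (log2 0.88 ± 0.28, adjusted p = 0.0468). ERBB2, the partner receptor with no known ligand, rose in SoF (0.60) and Ctrl (0.61), and NRG1 rose in Ctrl (0.83). NRG2 fell in SoF (-1.75), but it had only 4 to 23 counts per library.

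Among genes of ligand shedding (9 of 9 tested), 2 rose in wt, 3 in SoF and 3 in Ctrl, and 1 fell, in Ctrl. RHBDF2, which encodes iRhom2, a partner that brings the sheddase ADAM17 to the surface, rose by 1.53 ± 0.28, 1.63 ± 0.28 and 1.61 ± 0.29 on the log2 scale. FRMD8, which binds iRhoms and stabilises them, rose by 0.84, 0.84 and 0.90. The metalloprotease gene ADAM15 rose in SoF (1.19) and Ctrl (1.28), and ADAM9 fell in Ctrl (-0.57). Of the other brakes on the pathway (10 of 11 tested), 2 rose in wt, 1 in SoF and 1 in Ctrl, and 0 fell, which in SoF and Ctrl is below the share of all genes. In wt they were SPRED1, a relative of SPRED2 (log2 0.65 ± 0.19), and CBL, a ubiquitin ligase that sends EGFR to degradation (0.53 ± 0.17). In SoF it was CBL (0.68), and in Ctrl LRIG1, which lowers ERBB receptors at the membrane (0.62).

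Of the adaptors and the RAS-ERK cascade (17 of 17 tested), 1 rose and 1 fell in wt, 5 rose and 2 fell in SoF, and 2 rose and 1 fell in Ctrl. In wt and Ctrl this is near the share of all genes, so the genes named are single values and not a result on the list. MAP2K1, the kinase MEK1, rose in all 3 lines (log2 0.89, 1.37 and 0.57). KSR1, a scaffold for the cascade, fell in wt (-0.78) and SoF (-0.61). HRAS rose in SoF (1.09) and Ctrl (1.17), and the adaptor gene GAB1 fell in both (-0.69 and -0.61). The kinase genes MAP2K2 (0.62) and MAPK3 (0.93) rose in SoF.

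The list of ERK response genes, which are commonly induced by the pathway, mostly fell. Of 14 tested of 15, 3 rose and 8 fell in wt, 3 rose and 8 fell in SoF, and 2 rose and 9 fell in Ctrl, with median log2 changes of -0.94, -1.05 and -1.05. EGR1, an early response transcription factor, fell by 4.30 ± 0.32 in wt (adjusted p = 1.39e-08). FOS fell by 2.93 ± 0.33 and IER2 fell by 1.73 ± 0.20. Those that rose included the ETS factor gene ETV4 (log2 1.35, 1.44 and 1.51) and the cyclin gene CCND1 (0.69, 0.72 and 0.52) in all 3 lines, with ETV5 in wt (0.65) and PHLDA1 in SoF (0.59). The 5 glucocorticoid check genes, known targets of the receptor, rose in 5 of 5 cases in wt and SoF and 4 of 5 in Ctrl, where TSC22D3 did not pass. In wt, ZBTB16, FKBP5 and KLF9 rose by 5.82 ± 0.39, 3.11 ± 0.22 and 2.16 ± 0.26 on the log2 scale.

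The genes most like HBEGF and AREG in pattern were named by the Pearson correlation of log2 CPM over 24 libraries, as these 2 members varied most (SD of 1.09 and 0.86). For HBEGF they were NUMBL (r = 0.963), NAT16 (0.958), ZBTB7A (0.958), TMEM44-AS2 (0.958) and LIF (0.957). For AREG they were SLC22A5 (r = 0.886), SLC16A12 (0.859), IL1A (0.848), MYL2 (0.846) and NUDT16 (0.826). The points share the time course and library depth, and the values are descriptions without a test.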

How the data were processed

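The authors tagged molecular identifiers with UMI-tools 1.1.2, trimmed reads with Trim Galore 0.6.6, aligned them to hg38 with STAR 2.7.3a, removed duplicate molecules and ran featureCounts over the exons of GENCODE release 39. The deposited values are raw counts per gene. That strand was used is stated only by the table's title. Names came from GENCODE release 44, which matched 61369 of 61533 genes.

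Counts were fitted in edgeR 4.0.16 (R 4.3.3) with TMM, filterByExpr (minimum count 10, minimum total 15), its quasi-likelihood test and p-values adjusted over all genes tested (Benjamini-Hochberg), called at an adjusted p under 0.05. All 24 libraries entered a fit over 12 groups (23651 genes), which gave each time against 0 h, the steps between times and the line differences at 3 h, and a fit over 3 lines (21122 genes). Averages over lines against 0 h were added after the data were seen. RPKM used the union of exons in release 44, and correlations used log2 CPM with a prior count of 2. SE is the log2 change over the root of F. Scripts were tested on simulated data. DESeq2 1.42.0, other scaling, no filter, replicate terms and leaving out libraries were tried.

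The members and lists were chosen with earlier results of these data known. Members are named whatever their result. At most 3 called genes of each list with the smallest p at 3 h in wt are named, or all of a list with 5 or fewer calls, and the report says where others are named. The value of 1 called gene of the adaptor and cascade list is not reported here.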

Additional observations from a re-analysis of the deposited data

Results flagged for a closer look

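Among 24 checks of 8 libraries (8 members in 3 lines, times together), 2 had an extreme library by Dixon's gap, about as many as the 1 in 20 that chance flags. The highest EGFR library of wt (3 h replicate 2, 51.3 CPM) had a gap of 0.62 of the range on the log2 scale. The highest ERRFI1 library of SoF (3 h replicate 1, 491.7 CPM) had a gap of 0.549. As each check pools 4 times, both highest libraries are also 3 h libraries.

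For 2 tested members all libraries of one line moved one way from 0 h and all of another moved the other way. Each pair of lines was looked through at each time, and in each case 1.36% to 2.32% of genes did so. The count of 2 is therefore not read as a result on the members. The same held for 1.74% of the 23651 tested genes between SoF and Ctrl at 3 h and for 2.01% between Ctrl and wt at 2 h. ERRFI1 at 3 h was higher in SoF and lower in Ctrl, a difference of 0.99 on the log2 scale, whose test over all genes did not pass (adjusted p = 1). SPRED2 at 2 h was higher in Ctrl and lower in wt, a difference of 0.51 ± 0.19 (SE) on the log2 scale, whose edgeR test did not pass either (adjusted p = 1).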

How the results depend on the processing

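Of 1904 alternative values for single members, 1701 kept direction and side of the threshold, 67 lost the call, 40 gained one, and 96 changed sign without being called in either. None reversed a called direction. The cause of the changes below was not tested. Without the filter on low counts, 2 members passed at 1 h in wt (HBEGF, AREG), 2 in SoF (HBEGF, AREG) and 1 in Ctrl (AREG), 4 from 2 h to 3 h (HBEGF, AREG, EGFR, SPRY2), 2 in SoF minus Ctrl at 3 h (AREG, ERRFI1) and 0 in Ctrl against wt. It also gained AREG and TGFA and lost SPRY2 at 3 h in wt, gained AREG and ERRFI1 and lost SPRY2 at 2 h in Ctrl, and gained ERRFI1 at 3 h in Ctrl and AREG from 1 h to 2 h. The unfiltered fit took in all 48707 genes with a count, against 23651 in the main fit over 12 groups. Its adjusted p-values are therefore not comparable with those of the main fit. DESeq2 called 1 member in SoF against wt (ERRFI1). Size factors of DESeq2 in edgeR left 1 at 2 h in Ctrl (HBEGF). Only the libraries of the line left 1 at 2 h in wt (AREG) and 1 at 2 h in Ctrl (HBEGF). A time term gave 1 in SoF against wt (ERRFI1) and 4 in Ctrl against wt (HBEGF, EREG, TGFA, SPRED2).

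With libraries left out 1 at a time, the number of members called ranged from 0 to 2 at 2 h and 1 to 2 at 3 h in wt, 0 to 2 at 2 h and 3 to 5 at 3 h in SoF, and 1 to 1 at 2 h in Ctrl. Averaged over lines it ranged from 0 to 3 at 1 h, 2 to 4 at 2 h and 4 to 6 at 3 h. It stayed at 5 from 1 h to 2 h and at 2 from 2 h to 3 h. Between lines with time ignored, where all libraries of replicate 1 or of replicate 2 were left out together, it was 0 to 0 for SoF against Ctrl and 0 to 0 for Ctrl against wt. HBEGF averaged at 1 h missed the threshold without wt 0 h or 1 h replicate 1, SoF 0 h replicate 1, either SoF 1 h library, Ctrl 0 h replicate 1 or Ctrl 1 h replicate 2 (adjusted p of 0.0561 to 0.108). TGFA averaged at 2 h missed it without 8 of the 12 libraries compared, and SPRY2 averaged at 2 h without wt 0 h replicate 1 or Ctrl 2 h replicate 2.

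Deviations of same-numbered libraries correlated at -0.221 to 0.568 over 66 pairs of groups (median 0.038), with 21 over 0.1, so the numbers were not taken to pair the libraries. Among the 0 h groups 3 of 3 pairs were over 0.1 (0.394 to 0.568), so the ethanol libraries of the 3 lines did deviate together by number. Within SoF the 0 h, 1 h and 2 h groups did so too (0.277 to 0.434), while their correlations with SoF at 3 h were 0.04 to 0.129. The main fit held no replicate term, also in SoF. A replicate block changed 2 of 160 calls, TGFA at 3 h in wt (4 members called in place of 3) and EREG averaged at 2 h. A line-specific replicate block, chosen after the data were seen, called 1 member at 1 h in wt (AREG), 5 at 3 h in wt (AREG and TGFA added), 4 at 2 h in Ctrl (TGFA and SPRED2 added) and 5 at 3 h in Ctrl (TGFA and ERRFI1 added). It also added TGFA at 2 h in SoF, AREG from 2 h to 3 h and EREG averaged at 2 h. Over all alternatives, calls among all genes ranged from 13 to 516 (37 as reported), 144 to 1706 (1089) and 953 to 3254 (2534) at 1, 2 and 3 h in wt, from 14 to 245 (39), 424 to 2096 (1343) and 1772 to 5542 (4563) in SoF, and from 9 to 44 (11), 346 to 3257 (1881) and 983 to 4560 (3354) in Ctrl. Averaged over lines the 1 h count ranged from 164 to 1035 (303). Between 2 h and 3 h it ranged from 1564 to 2932 (2366). The line differences in response ranged from 0 to 52 (3) for SoF minus Ctrl, 0 to 4 (0) for SoF minus wt and 0 to 17 (0) for Ctrl minus wt. With time ignored the ranges were 122 to 2814 (763), 42 to 6134 (1693) and 18 to 3965 (1007) for SoF against Ctrl, SoF against wt and Ctrl against wt. EREG, with 35 to 108 counts per library, is limited by depth as well as by 2 libraries a group.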
